A study of Mus musculus with 6 samples.

Results

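The 8 genes described here encode synaptic adhesion proteins and their scaffold: the neurexins Nrxn2 and Nrxn3, the neuroligins Nlgn1, Nlgn2 and Nlgn3, the leucine-rich repeat proteins Lrrtm1 and Lrrtm2, and the scaffold Cask. They were taken by name, out of 23038 genes in the files, as synaptic adhesion genes that oligodendrocyte precursors also transcribe. The cells were mOPCs, primary oligodendrocyte precursor cells that the study purified by immunopanning from mouse embryos at embryonic day 14.5. They were transfected with control siRNA (siNC, 3 libraries) or with siRNA against Qk (siQk, 3 libraries) and collected 72 h later. The labels call the libraries of each group biological replicates and name 3 different Qk siRNAs, but do not tie an siRNA to a library. Mouse strain and sex are not given in the sources used here. Of the 8 members, Nlgn3 rose, Lrrtm2 fell, and the other 6 were not called changed.

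At a synapse, neurexins sit in the presynaptic membrane and bind partners across the cleft. Neuroligins and LRRTMs are such partners on the postsynaptic side, with Nlgn1 and the LRRTMs known mainly from excitatory synapses, Nlgn2 from inhibitory synapses and Nlgn3 from either kind. Cask is a membrane-associated guanylate kinase whose PDZ domain holds the cytoplasmic tail of neurexins and which also binds Lin7 and Mint (Apba) adaptors. OPCs receive synaptic contacts from neurons and carry transcripts of many genes of either side, and a shed form of neuroligin-3 is known as a growth signal for glioma cells that resemble OPCs. Qk encodes Quaking, an RNA-binding protein of glia that recognizes ACUAAC and ACUAAU in RNA and acts on splicing, stability and transport of its targets.

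The siQk libraries held less RNA of Qk, whose protein reads ACUAAC and ACUAAU. The longest annotated 3'UTR of each member was searched for these letters (ACTAAC and ACTAAT in the DNA alphabet, mRNA strand only, GENCODE M21 on GRCm38). Of the 11825 tested genes with a 3'UTR, 36.1% held at least 1 such site, and sites occurred at 0.345 per kilobase over all of their 3'UTRs. Lrrtm2, the member that fell, had the densest 3'UTR of the 8, with 4 ACTAAT in 3697 bases (1.08 per kilobase), and 68.2% of tested genes with a 3'UTR of 0.8 to 1.25 times that length held a site. Nlgn1 had 5 sites in 7423 bases (0.674 per kilobase; 89.8% of genes of like length held a site) and Cask 3 in 5091 bases (0.589 per kilobase; 77.4%). Nlgn3, the member that rose, had 1 in 5701 bases (0.175 per kilobase; 80.4%), and Nrxn2 had 1 in 1779 bases (0.562 per kilobase; 42.1%). The 3'UTRs of Nrxn3 (2525 bases), Nlgn2 (2081 bases) and Lrrtm1 (387 bases) held none, against 54.8%, 47.8% and 12.8% of genes of like length that held a site. A match describes letters only, and binding was not measured here. The ACTAAC windows of 30 bases in the members are shown for comparison of their surroundings, 5′ to 3′, with the match in capitals.
Nlgn3, chrX:101321249-101321278, plus strand: agttcttaaaacACTAACggaaacccatgg
Cask, chrX:13521032-13521061, minus strand: tttaaaatgataACTAACaggacagtctga
Nlgn1, chr3:25432042-25432071, minus strand: ggactttctctgACTAACtgctgtaacaga
Nlgn1, chr3:25430930-25430959, minus strand: ctgctacatcttACTAACacctactttttg
Nlgn1, chr3:25430700-25430729, minus strand: tgtacaaccagaACTAACaactgtttgcaa
Nlgn1, chr3:25430277-25430306, minus strand: ataaaattgattACTAACttttatgaaata
The 4 windows of Nlgn1 lie in the same 3'UTR.

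Levels are given as RPKM, the authors' count of tags scaled by exon length in kilobases and by the total of the library, with the SD over 3 libraries. Fold changes come from the tag counts after TMM scaling and are siQk over siNC on the log2 scale. The libraries held 58166490 to 141045937 tags. As a check of the labels, Qk itself averaged 193 ± 25.9 RPKM (n = 3) in the siNC libraries. Its siQk average was 54.7 ± 20.4 RPKM (n = 3; log2 fold change -1.98, edgeR quasi-likelihood test, FDR 0.00311). siNC replicate 1 stood apart as the smallest library, in which Rn45s, a ribosomal RNA locus, took 3.11% of the tags (0.169% to 0.389% elsewhere), and results that changed without it are given both ways. In bulk RNA, fewer cells of a type and less RNA per cell cannot be told apart.

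In siNC the members spanned from 1.51 RPKM for Nrxn3 to 48.3 RPKM for Nlgn2. Ordered by mean RPKM, siNC read Nlgn2, Lrrtm2, Cask, Nlgn3, Nrxn2, Nlgn1, Lrrtm1 and Nrxn3. The ranges over libraries of neighbours in that order overlapped for Nlgn2 with Lrrtm2 and for Nlgn3 with Nrxn2, although in each of the 3 libraries the former of the pair was the higher. In siQk the order became Nlgn2, Cask, Nlgn3, Lrrtm2, Nrxn2, Nlgn1, Lrrtm1 and Nrxn3, and no neighbours overlapped. Lrrtm2 thus moved from rank 2 to rank 4, and Cask and Nlgn3 each stood 1 rank higher, while the other 5 kept their ranks. Against all tested genes, by the mean RPKM over the 6 libraries, Nlgn2 lay above 88.7% of them, Cask above 84.3%, Lrrtm2 above 82.5%, Nlgn1 above 45.3%, Lrrtm1 above 30.2% and Nrxn3 above 12.2%.

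**Figure D1:**
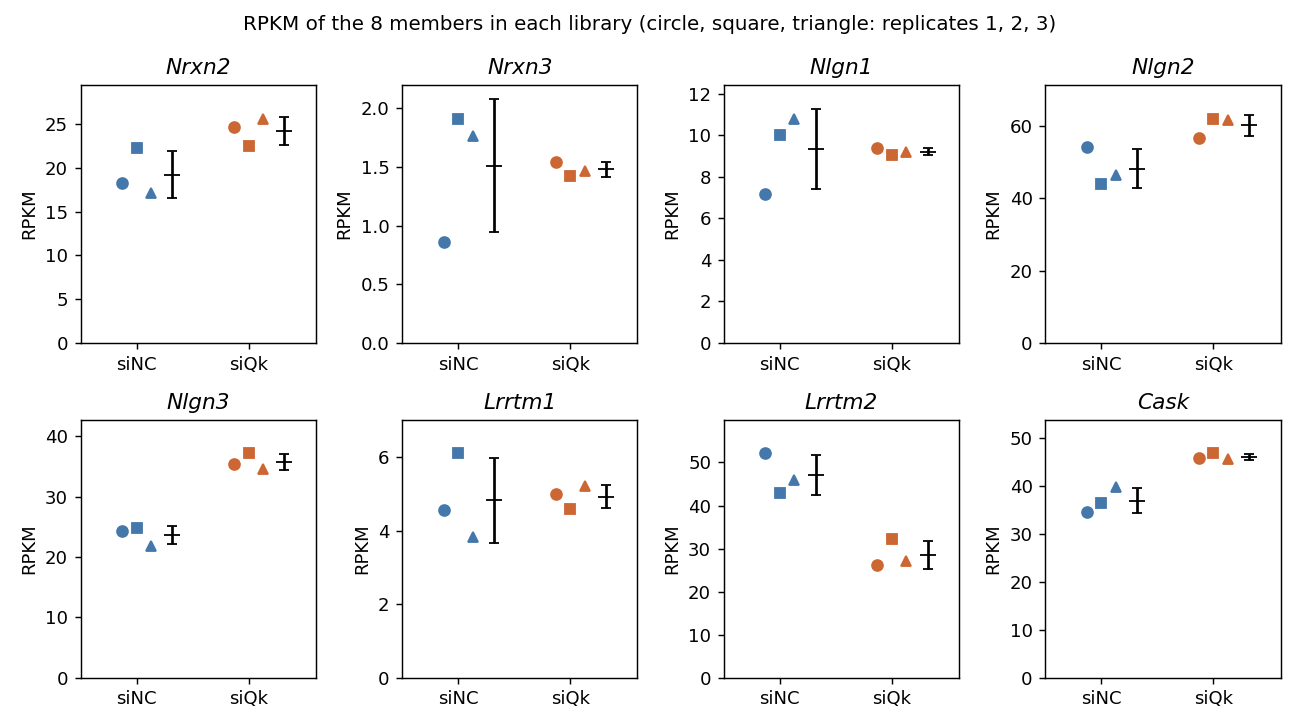
RPKM (linear axes from 0) of each member in the 3 siNC libraries (blue) and the 3 siQk libraries (orange), with the mean and SD beside the points. The siQk libraries lie above all siNC libraries for Nrxn2, Nlgn2, Nlgn3 and Cask and below them for Lrrtm2.

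Among the neurexins, Nrxn2 was the abundant gene and neither changed past the cutoffs. Nrxn2 (Entrez gene 18190) spans chromosome 19, 6418731 to 6544169, plus strand, in mm10. It was at 18.3, 22.3 and 17.2 RPKM in siNC replicates 1, 2 and 3 and at 24.6, 22.5 and 25.6 RPKM in siQk. The siQk values all stood above the siNC values, with siNC replicate 2 only just below siQk replicate 2. The log2 fold change was 0.18 (standard error 0.12, 95% interval -0.09 to 0.46, FDR 0.250), and once each RPKM was divided by its library's TMM factor the ranges overlapped. It was not called under any alternative, but moved to 0.08 without siNC replicate 3, to 0.29 without siNC replicate 2 and to 0.33 with library size only. In GENCODE, 682 of its exon bases (4.94%) are shared with the antisense gene Slc22a12.

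Nrxn3 (Entrez gene 18191), a gene of 1612060 bases on chromosome 12 from 88722876 to 90334935 on the plus strand, was the lowest member. Its level was 0.861, 1.91 and 1.76 RPKM in siNC replicates 1, 2 and 3 and 1.55, 1.42 and 1.46 RPKM in siQk. The siQk libraries lay close together inside the siNC range, where replicate 1 was low, with 599 tags. This gave a log2 fold change of -0.17 (standard error 0.25, 95% interval -0.77 to 0.42, FDR 0.608). Without siNC replicate 1 it was -0.43 and was called (FDR 0.0246), while without siNC replicate 2 it was 0.02 and was not called. The long and short forms of a neurexin, which start at different promoters, are summed in these values.

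Among the neuroligins, Nlgn3 rose while no change was called for Nlgn1 and Nlgn2. Nlgn3 (Entrez gene 245537; chromosome X from 101299168 to 101325963, plus strand) was at 24.4, 24.7 and 21.9 RPKM in siNC replicates 1, 2 and 3. In siQk it was at 35.4, 37.2 and 34.6 RPKM, so every siQk library was well above every siNC library. It rose by 0.44 on the log2 scale, or 1.36-fold (standard error 0.08, 95% interval 0.24 to 0.64, FDR 0.00843 from the same edgeR test). A change of at least this size in either direction was seen in 28.2% of tested genes. The call was made under each of the 16 alternatives, with log2 fold changes from 0.36 to 0.60. The exon length in the files is 3954 bases against 9271 bases of exons in GENCODE, so these values rest on less than the full annotated transcript, and 41.2% of the GENCODE exon bases are shared with Gm21986, a transcript on the same strand that the files do not list.

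Nlgn2 (Entrez gene 216856; chromosome 11 from 69823122 to 69837784, minus strand) was the highest member, at 54.2, 44.0 and 46.5 RPKM in siNC replicates 1, 2 and 3 and at 56.7, 62.1 and 61.8 RPKM in siQk. The groups did not overlap, but siNC replicate 1 came close to siQk replicate 1. Once divided by the TMM factors the ranges overlapped, and siNC replicate 1 was then the highest of the 6 libraries, at 60.3 against 53.9, 58.3 and 59.2 in siQk. Its log2 fold change was 0.16 (standard error 0.12, 95% interval -0.11 to 0.44, FDR 0.306). Without siNC replicate 1 it was 0.30 and was called (FDR 0.0300).

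Nlgn1 (Entrez gene 192167; chromosome 3 from 25426215 to 26332460, minus strand) was at 7.16, 10.02 and 10.8 RPKM in siNC replicates 1, 2 and 3. In siQk it was at 9.38, 9.05 and 9.19 RPKM, inside the siNC range, which replicate 1 stretched downward. With TMM its log2 fold change was -0.16 (standard error 0.12, 95% interval -0.45 to 0.12, FDR 0.314). Leaving out siNC replicate 1 gave -0.29 and a call (FDR 0.0230). siNC replicate 1 thus held the lowest Nlgn1 and Nrxn3 and the highest Nlgn2 of the siNC libraries. The exon length of Nlgn1 in the files is 7245 bases against 13422 bases of exons in GENCODE. Of the latter, 1229 bases (9.16%) are shared with the antisense gene A830092H15Rik, which the files do not list.

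Lrrtm2 was the member with the largest change and the only one called lower, while Lrrtm1 was not called. Lrrtm2 (Entrez gene 107065) spans chromosome 18, 35209003 to 35215024, minus strand. It was at 52.1, 43.0 and 45.9 RPKM in siNC replicates 1, 2 and 3 and at 26.1, 32.3 and 27.0 RPKM in siQk. The highest siQk library, replicate 2, stayed below the lowest siNC library. The log2 fold change was -0.88 (standard error 0.12, 95% interval -1.18 to -0.58, FDR 0.00327), that is 1.84-fold lower in siQk. A change of at least this size in either direction was seen in 10.2% of tested genes. The call was made under each of the 16 alternatives, with log2 fold changes from -0.97 to -0.72.

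Lrrtm2 lies inside Ctnna1, the gene of alpha-catenin of adherens junctions, which runs on the opposite strand from 35118859 to 35254779. The annotated genes share 95 exon bases, 1.58% of the exons of Lrrtm2, and the library kit does not mark strand. Ctnna1 fell too, with a log2 fold change of -0.62 (FDR 0.00407), from 125, 114 and 143 RPKM in siNC to 89.8, 98.2 and 87.4 RPKM in siQk. The ratio of Lrrtm2 to Ctnna1 RPKM was 0.416, 0.378 and 0.321 in siNC and 0.291, 0.329 and 0.309 in siQk, so the ratios of the groups overlapped between siNC replicate 3 and siQk replicate 2. The part of Ctnna1 reads in the Lrrtm2 values was not tested.

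Lrrtm1 (Entrez gene 74342; chromosome 6 from 77242689 to 77257791, plus strand) was at 4.56, 6.11 and 3.83 RPKM in siNC replicates 1, 2 and 3 and at 4.996, 4.59 and 5.21 RPKM in siQk. The siQk values lay inside the siNC range. Its log2 fold change was -0.12 (standard error 0.18, 95% interval -0.55 to 0.30, FDR 0.614), and it turned to 0.03 with library size only and to 0.07 without siNC replicate 2. Lrrtm1 lies in Ctnna2, with which it shares no exon base, and Ctnna2 was not called either (log2 fold change -0.10, FDR 0.186). RPKM of Lrrtm2 was 11.4, 7.04 and 11.97 times that of Lrrtm1 in siNC and 5.23, 7.03 and 5.19 times in siQk, so siNC replicate 2 and siQk replicate 2 were nearly level.

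Cask (Entrez gene 12361; chromosome X from 13517080 to 13851367, minus strand) was higher in every siQk library, but by an amount that passed the FDR cutoff and not the cutoff on P. It was at 34.6, 36.4 and 39.8 RPKM in siNC replicates 1, 2 and 3 and at 45.8, 46.8 and 45.6 RPKM in siQk. The siQk libraries agreed closely, and siNC replicate 3 was the highest of its group. The log2 fold change was 0.17 (standard error 0.06, 95% interval 0.03 to 0.31, P 0.0247 and FDR 0.0614 from edgeR). TMM-scaled values also did not overlap, at 37.8 to 40.3 in siNC and 43.5 to 43.9 in siQk. With library size only the log2 fold change was 0.32 and was called (FDR 0.0161), on a scale where the median of all tested genes was 0.16 against 0.01 with TMM. It was also called with upper quartile normalization (0.23, FDR 0.0282) and with DESeq2's Wald test (0.16, FDR 0.00894). The other 13 of the 16 alternatives did not call it. Among those, the FDR was 0.122 with edgeR's exact test and 0.152 with the replicate number as a block. These values sum all isoforms of Cask, whose exon choice was not analysed here.

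**Figure D2:**
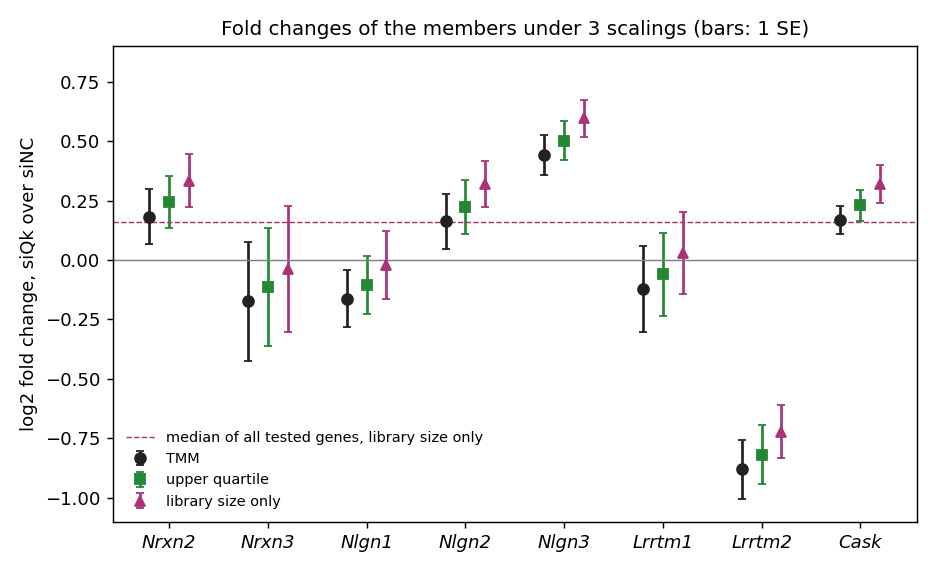
Log2 fold change (siQk over siNC) of each member with TMM, upper quartile and library size only scaling, with bars of 1 standard error. Lrrtm2 lies between -0.88 and -0.72 and Nlgn3 between 0.44 and 0.60 under these scalings, and the dashed line marks the median of all tested genes (0.16) with library size only.

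As a group the members did not move together. Of the 8, 1 was called higher and 1 lower, against 13.8% of the 12505 tested genes called higher, 17.2% called lower and 31.0% called in either direction, so the count of 2 in 8 is close to what all genes showed. Their median log2 fold change was 0.02, against 0.01 over all tested genes. RPKM ranges lay wholly higher in siQk for 4 members and wholly lower for 1, where 41.9% and 16.4% of tested genes did so. With TMM-scaled RPKM 3 members had ranges that did not overlap, against 54.4% of tested genes. The direction of calls over all genes depended on the scaling: 44.6% of them were higher with TMM and 68.6% with library size only, a setting in which 23.9% of tested genes were called higher, among them Nlgn3 and Cask, and Lrrtm2 was called lower.

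**Figure D3:**
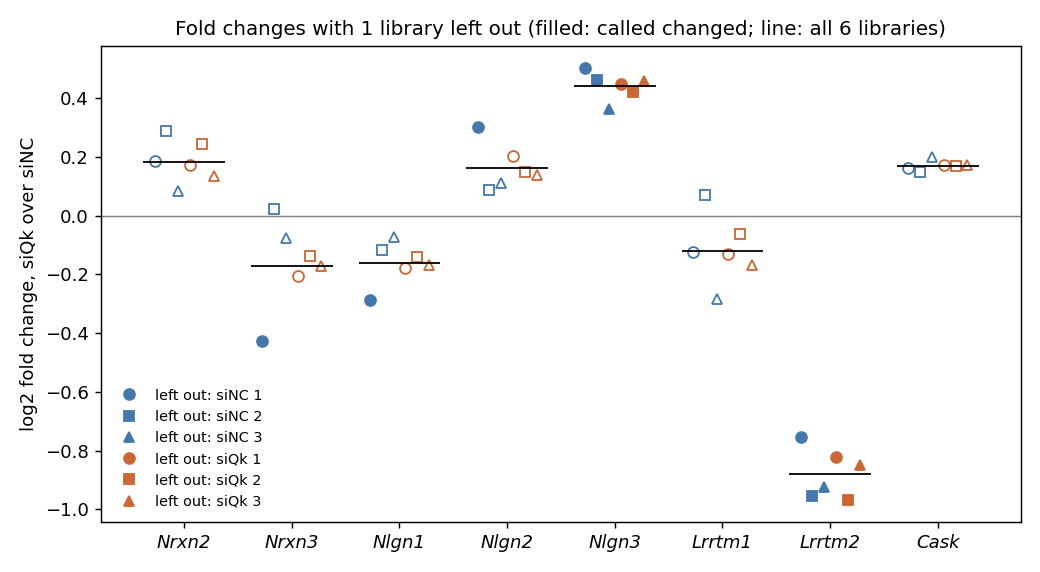
Log2 fold change of each member with 1 library left out, where symbols name that library, filled symbols are called changed and black lines give the value with all 6. Nlgn3 and Lrrtm2 are filled throughout, and Nrxn3, Nlgn1 and Nlgn2 are filled only where siNC replicate 1 was left out.

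The makeup of the neuroligins within a library needs no scaling between libraries. Nlgn3 took 28.4%, 31.4% and 27.6% of the summed neuroligin RPKM in siNC replicates 1, 2 and 3 and 34.9%, 34.3% and 32.8% in siQk, so that the groups did not overlap. Its mean share was 29.1% ± 2.001 (SD, n = 3) in siNC and 34.0% ± 1.08 (SD, n = 3) in siQk (two-sided exact permutation p = 0.1, which 3 libraries against 3 cannot go below, and 0.4 after adjustment over the 4 shares compared). Nlgn2 took 59.3% ± 3.72 in siNC and 57.2% ± 1.32 in siQk (n = 3 each, exact permutation p = 0.5). Nlgn1 took 11.6% ± 2.83 and 8.76% ± 0.444 (n = 3 each, exact permutation p = 0.4). Nlgn2 was the main neuroligin in each of the 6 libraries. The difference in share, siQk minus siNC, depended on single siNC libraries for Nlgn2, where it was -2.05 percentage points with all 6, -0.06 without siNC replicate 1 and -3.76 without siNC replicate 2, and leaving out siQk replicate 1 gave -1.37. For Nlgn1 it was -2.81 points with all 6, -4.42 without siNC replicate 1 and -1.77 without siNC replicate 3. For Nlgn3 it was 4.85 points with all 6 and from 4.09 to 5.99 with 1 library left out. Of the summed RPKM of Nrxn2 and Nrxn3, Nrxn2 made up 92.8% ± 2.47 in siNC and 94.2% ± 0.310 in siQk (n = 3 each, exact permutation p = 0.4). That difference was 1.48 points with all 6, 2.85 without siNC replicate 1 and 0.45 without siNC replicate 3.

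**Figure D4:**
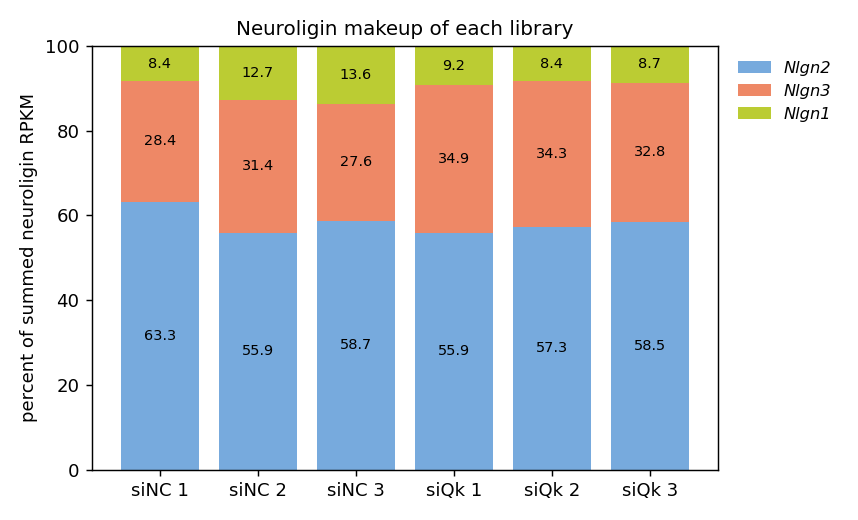
Percent of the summed RPKM of Nlgn1, Nlgn2 and Nlgn3 that each took in every library. Nlgn3 takes 27.6% to 31.4% in siNC and 32.8% to 34.9% in siQk, and Nlgn2 is the main part of every bar.

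The genes that work with the members were taken from 5 lists of 74 genes, of which 66 were tested. Of these, 8 were called higher and 12 lower, with a median log2 fold change of 0.07. The share called, 20 of 66, stands beside the 31.0% of all tested genes. The counts by list below stand beside 13.8% of all tested genes called higher and 17.2% called lower.

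Neurexin ligands and partners included 14 tested genes, of which 3 were lower and 0 higher. Sparcl1, a secreted matrix protein (hevin) that bridges neurexins and neuroligins, stood at 147, 106 and 124 RPKM in siNC and at 64.1, 58.7 and 71.4 RPKM in siQk, a log2 fold change of -1.11 (FDR 0.00326). Dag1, the dystroglycan gene, whose product binds the extracellular part of neurexins, fell by 0.68 on the log2 scale (FDR 0.00345). Clstn2, a calsyntenin, fell by 1.46 from 0.757 to 1.36 RPKM in siNC to 0.355 to 0.464 RPKM in siQk. The LRRTM genes outside the members, Lrrtm3 and Lrrtm4, were not called (log2 fold changes 0.09 and 0.61, FDR 0.508 and 0.145). Of the cerebellins, Cbln1 (0.20, FDR 0.294) and Cbln2 (0.85, FDR 0.0666) were tested and not called. Of the neurexophilins, Nxph1 (0.29, FDR 0.184) and Nxph4 (0.15, FDR 0.764) were tested and not called. Cbln4 and Nxph3 were too low to be tested, and Nxph2 had no tag in any library.

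Of the neuroligin regulators, Mdga1, whose product binds neuroligins and blocks neurexin binding, rose by 0.61 on the log2 scale (FDR 0.0195), from 1.501 to 1.747 RPKM in siNC to 2.49 to 3.31 RPKM in siQk. Its paralog Mdga2 was not called (0.17, FDR 0.228).

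Of 10 tested Cask partners, 2 rose and 1 fell. Apba2, a Mint adaptor, was at 162, 182 and 183 RPKM in siNC and 106, 104 and 108 RPKM in siQk, and fell by 0.88 on the log2 scale (FDR 0.000506). Ppfia2 and Ppfia3, liprin-alpha genes of the presynaptic active zone, rose by 1.19 (FDR 0.00414) and 0.61 (FDR 0.00320). The Lin7 genes were not called: Lin7c, the most abundant of the 3, was at 38.7, 14.8 and 41.1 RPKM in siNC and at 47.1, 45.5 and 43.5 RPKM in siQk, with siNC replicate 2 low.

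Of 18 tested postsynaptic scaffolds, 2 were called higher and 4 lower, not far from the shares of all tested genes (13.8% and 17.2%). Within the Dlg family of PSD-95-like scaffolds, which bind neuroligin tails, Dlg3 rose by 0.61 on the log2 scale (FDR 0.00298) and Dlg1 fell by 0.68 (FDR 0.0258). Dlg4, the PSD-95 gene itself, had a log2 fold change of 0.07 (FDR 0.440), and Dlgap3, a scaffold that binds Dlg proteins, rose by 0.66 (FDR 0.0110).

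Among other synaptic adhesion genes, 3 of 22 rose and 4 fell. Cadm2, a SynCAM, fell from 60.2, 50.2 and 49.1 RPKM to 19.6, 21.3 and 21.5 RPKM (log2 fold change -1.51, FDR 0.000732). Il1rap, a partner of the receptor phosphatase Ptprd, fell by 1.26 (FDR 0.000633). Slitrk6, another ligand family of such phosphatases, rose by 0.72 (FDR 0.0219). Cadm4, another SynCAM, fell by 0.72 (FDR 0.00590).

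**Figure D5:**
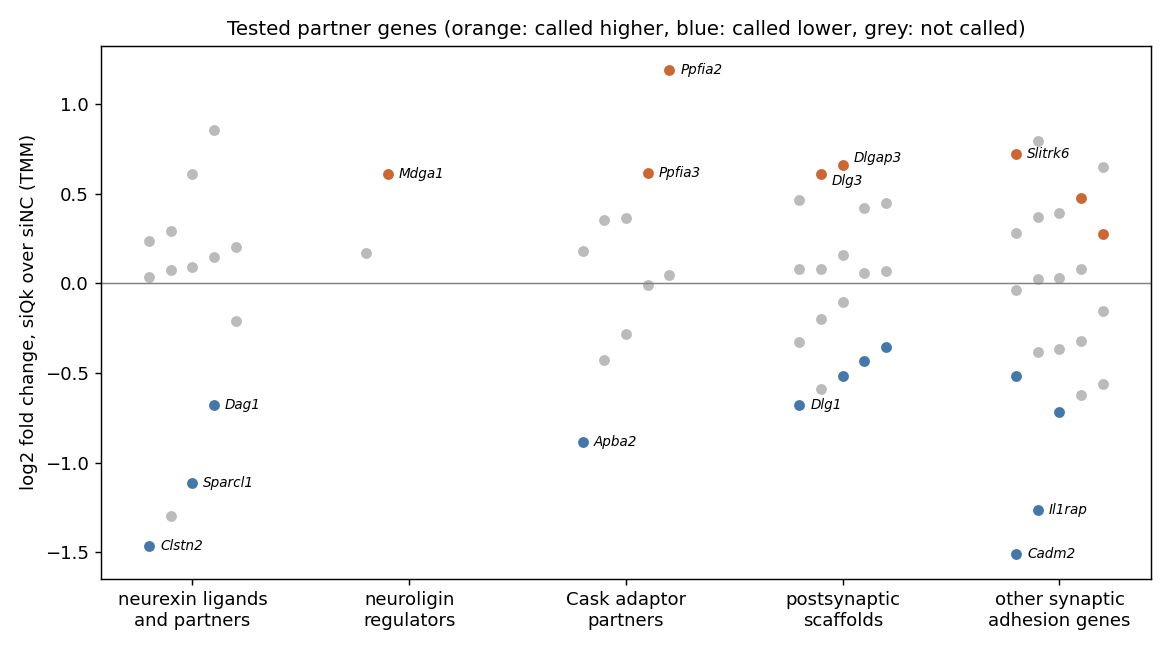
Log2 fold change (siQk over siNC, TMM) of each of the 66 tested partner genes in 5 lists, with orange for genes called higher, blue for genes called lower and grey for the rest. The horizontal spread within a list carries no value, and labelled genes run from Cadm2 at -1.51 to Ppfia2 at 1.19.

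Marker lists of the lineage and of other cell types were counted in the same way, beside the 31.0% of all tested genes called. Of 10 mature oligodendrocyte markers, 8 were lower and 0 higher, and their summed RPKM was 3514 to 6126 in siNC and 1515 to 2278 in siQk. Of 10 OPC markers 4 were higher and 1 lower, with sums of 1115 to 1194 in siNC and 1343 to 1504 in siQk. Of 14 neuron markers 10 were tested, 4 were higher (Snap25, Syn1, Nefl and Map2, listed as Mtap2) and 1 lower (Gad2). The sums of this list were 161 to 252 in siNC and 197 to 241 in siQk. The neuron list was uneven in level. Its 4 untested genes, Stmn2, Slc17a6, Slc17a7 and Slc32a1, were under 0.1 RPKM in all 6 libraries, while Tubb3 was at 68.4 to 166 RPKM (not called) and Map2 at 49.5 to 98.4 RPKM. Snap25 rose 6.23-fold and Nefl 3.05-fold from under 3 RPKM in siNC. Gad2 fell 4.56-fold, from 0.205 to 0.324 RPKM in siNC to 0.0464 to 0.0863 RPKM in siQk. Of 9 tested astrocyte markers 4 were lower and 1 higher, with sums of 299 to 419 in siNC and 297 to 321 in siQk. Gfap (log2 fold change -2.95) and Aldh1l1 (-2.21) fell, S100b (110 to 175 RPKM) and Aldoc (82.6 to 118 RPKM) were abundant and not called, and Gja1 was at or below 0.0130 RPKM. Of 10 microglia markers 2 were tested and 1 was lower, and of 10 fibroblast and vascular markers 1 was tested and none was called, with sums of at most 5.82 and 4.96 RPKM. The part of the cell makeup in the values of Lrrtm2, Nlgn3 and the partner genes was not tested.

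For each member the gene with the most similar profile was taken, by Pearson's r of TMM-scaled log2 CPM over the 6 libraries among 10043 other genes with an average logCPM over 3. For Nlgn3 this was Spats2 (r = 0.998), for Lrrtm2 Tmem201 (r = 0.998) and for Cask Midn (r = 0.999), and each of these was called changed in the direction of its member, although Cask itself was not called. For Nlgn1 it was Mapk9 (r = 0.992), for Nlgn2 Abcc10 (r = 0.997), for Nrxn2 March5 (r = 0.994), for Nrxn3 Rps6ka5 (r = 0.996) and for Lrrtm1 Ppp1r3f (r = 0.991), none of them called. An r over 0.95 was reached by 222 genes for Nlgn3, 488 for Lrrtm2 and 455 for Cask, and by 8 to 26 genes for each other member. These values describe the 6 libraries, which share their 2 groups, and carry no test. Between members, r ranged from -0.95 for Nlgn1 with Nlgn2 to 0.91 for Nrxn3 with Nlgn1, pairs in which siNC replicate 1 is the extreme siNC library.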

How the data were processed

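RNA from mOPCs was measured in 6 libraries, 3 siNC and 3 siQk. The authors selected polyadenylated RNA, made libraries with the TruSeq RNA Sample Prep Kit v2, used OLego to map the paired-end reads (mm10) and Quantas to count per gene. Versions and the gene annotation are not given in the sources used here. Per gene, the deposited files hold an estimated count of tags, which is not normalized, and an RPKM, which the authors scaled for exon length and library size. The RPKM values were recomputed from the same files, with a largest relative difference of 1.03e-14.

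Estimated counts were rounded and TMM-normalized and tested in edgeR 4.0.16 (R 4.3.3, with limma 3.58.1) by quasi-likelihood, with the group as the only term and all 6 libraries. Genes with an average logCPM over 0 were tested, and adjusted p-values (FDR) are Benjamini-Hochberg values over all of them. Calls required P under 0.01 together with FDR under 0.1. Standard errors were derived from the log2 fold change and its F statistic, and 95% intervals use the total degrees of freedom of the same fit. The code of this step was also run on simulated counts with a single dispersion and few changed genes. That setting is simpler than these data and does not test the calls made here. Shares were compared with exact two-sided permutation tests. 3'UTRs and positions come from GENCODE M21 (GRCm38, the assembly of mm10), where the longest 3'UTR of at least 50 bases per gene was used.

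The members, the partner lists, the marker lists and the tests were chosen with earlier results of these data known. Genes named were the members, Qk, the host genes Ctnna1 and Ctnna2, the 3 called genes with the largest absolute log2 fold change in each of 5 partner lists, and for each member the gene with the most similar pattern. Marker genes and the other list genes named were chosen after their values were seen. Alternatives were other scalings, DESeq2 1.42.0, other edgeR tests, other filters, another cutoff, thinning to the smallest library, the replicate number as a block, and each library left out. Exons and isoforms were not analysed here.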

Additional observations from a re-analysis of the deposited data

How the results depend on the processing

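Nlgn3, Lrrtm2 and Qk were called in the same direction under each of the 16 alternatives, and Nrxn2 and Lrrtm1 under none. Cask was called with upper quartile normalization (log2 fold change 0.23), library size only (0.32) and DESeq2's Wald test (0.16), and not under the other 13. Leaving out 1 library gave log2 fold changes from -0.43 to 0.023 for Nrxn3, from -0.29 to -0.072 for Nlgn1, from 0.085 to 0.29 for Nrxn2, from 0.087 to 0.30 for Nlgn2 and from -0.29 to 0.068 for Lrrtm1, with calls for Nrxn3, Nlgn1 and Nlgn2 only without siNC replicate 1. Without that library 5 members were called in place of 2, while calls over all genes went from 31.0% to 25.4%. Lrrtm1 was at 0.030 with library size only. Of the partner genes, 20 were called, against 31 with edgeR's exact test (34.3% of all genes called), 31 with its likelihood ratio test (34.4%) and 30 with DESeq2 (39.1%). Dropping single libraries gave 12 (when siQk replicate 1 was dropped, 19.8% of all genes called) to 24 (siNC replicate 2, 28.6%). The causes were not tested. Apart from the changes named here, the calls of Qk and the members stayed on the same side of the cutoff. Single partner and marker genes were not followed through the alternatives.

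Libraries were not paired by replicate number, since the deviations of same-numbered libraries correlated at -0.05, -0.15 and -0.34. With the replicate number as a block 2 members were called, the same 2, and 2796 genes in all against 3879. Thinning to the smallest library left the same 2 members called. With 3 libraries a group, p-values measure the spread between these libraries only.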
